A study of Mus musculus with 6 samples.

Results

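Notch signalling passes a message between touching cells. A ligand of the Jagged or Delta family on one cell binds a Notch receptor on its neighbour, proteases release the receptor's intracellular domain, and that domain joins the DNA-binding protein RBPJ in the nucleus to switch on genes such as the HES and HEY repressors. In the epidermis the pathway is known for helping keratinocytes leave the basal layer and begin spinous differentiation. Described here are 10 genes, taken by name: the receptors Notch1, Notch2 and Notch3, the ligands Jag1, Jag2 and Dll1, the nuclear partner Rbpj, and the targets Hes1, Hey1 and Nrarp. Each is a probe set whose sole named gene is that gene, and all 10 were found among 30142 genes measured.

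RNA of epidermal sheets was measured on 6 expression arrays. Of these, 3 came from Rptor cKO mouse embryos and 3 from wild-type littermates, all taken at E18.5, late in gestation. The series design text names them as biological replicates. Rptor encodes Raptor, the part of mTORC1 that recruits its targets to the kinase, and cKO stands for conditional knockout. The sources used here do not name the Cre driver, the strain or the deleted exons. The sheets were lifted off the dermis after 10 minutes in 3.8% ammonium thiocyanate, so cells of several epidermal layers and any remaining dermis were measured together. All values are RMA values on the log2 scale, and every difference is Rptor cKO minus wild-type, so 1 on this scale is a 2-fold change. Levels of different genes are not compared, because probe sets differ in how brightly they read.

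The median over all probe sets ran from 4.08 to 4.22 on the 6 arrays, and each array correlated more closely with its own group (mean r across genes 0.989 to 0.992) than with the other (0.966 to 0.982). Rptor read 6.54, 6.82 and 6.72 in Rptor cKO and 6.98, 7.46 and 7.00 in wild-type, a difference of -0.46 (SE 0.15) that missed the threshold in limma (adjusted p = 0.099). By Xist and 3 Y-linked genes, Rptor cKO arrays 1 and 3 came from females and the other 4 arrays from males. Of all 30142 genes, 2887 (9.58%) passed the test at an adjusted p of 0.05, with 3.63% higher and 5.95% lower in Rptor cKO. The calls were thus 62.1% lower, and 51.8% lower after quantile normalization.

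Of the 10 Notch genes, 3 rose (Jag2, Dll1 and Notch1), 2 fell (Notch2 and Notch3) and 5 did not pass the test (limma, adjusted over all 30142 genes). The groups did not overlap for 6 of the 10, 4 of them higher and 2 lower in Rptor cKO, where 29.0% of all genes showed such a separation, 16.5% higher and 12.5% lower. The median difference of the 10 was 0.18, beside 0.05 over all genes tested. Thus 2 of the 3 ligands rose, 1 receptor rose and the other two fell, and the third ligand, Jag1, did not pass, nor did Rbpj or any of the 3 targets. In a bulk sheet, fewer cells of a type and less RNA per cell cannot be told apart.

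**Figure D1:**
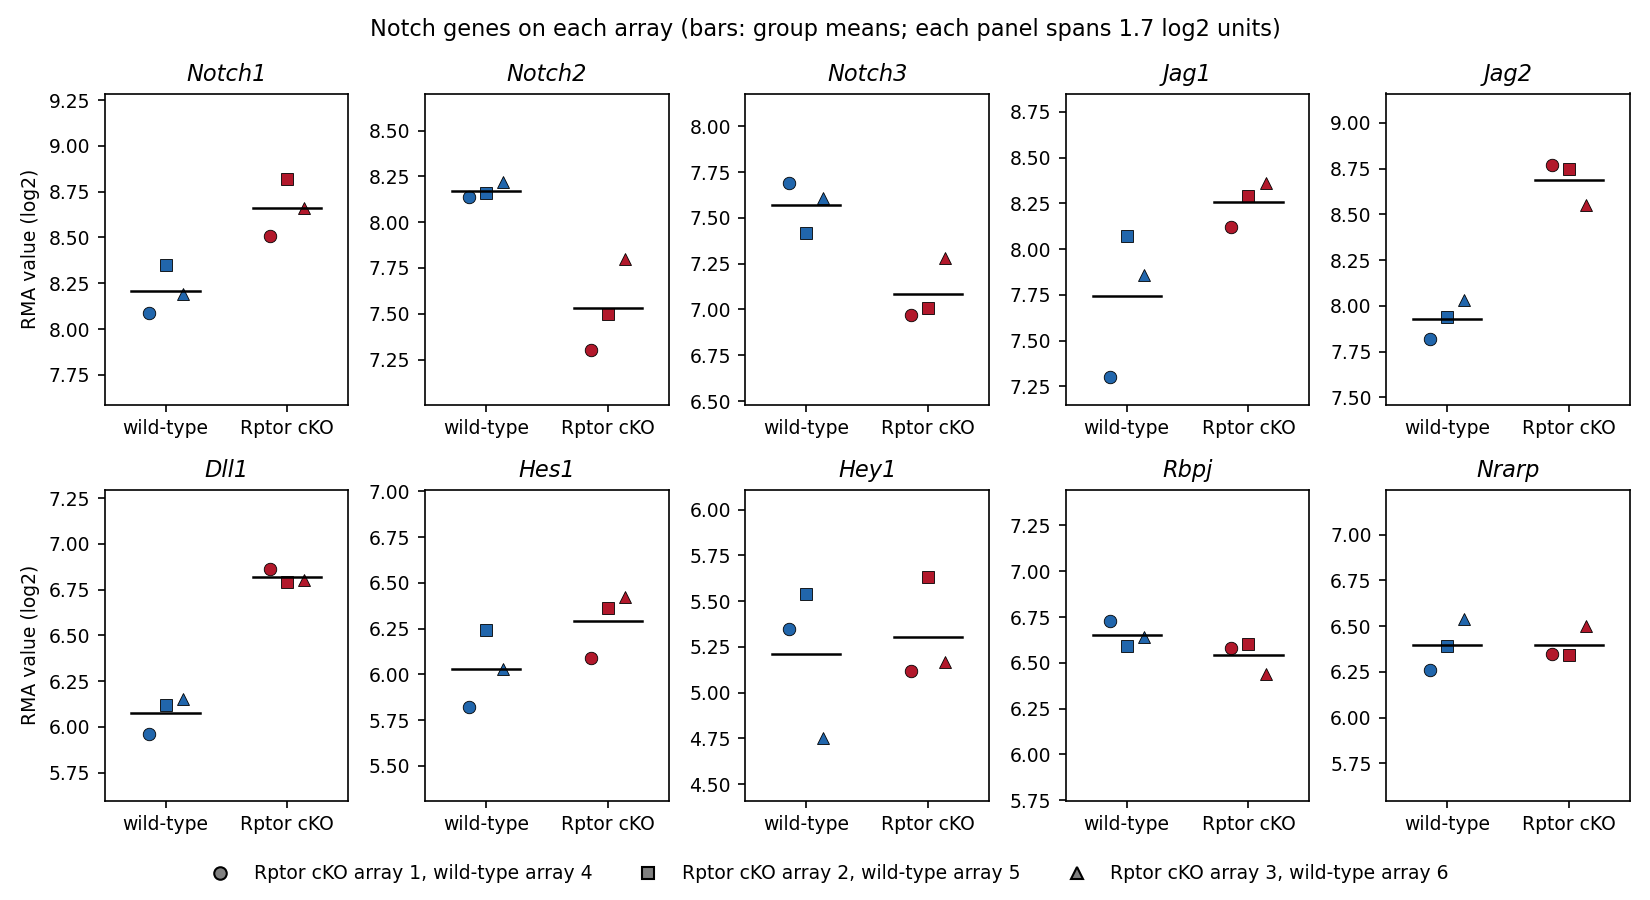
Each panel plots 1 gene as its RMA value (log2) on each array, with wild-type arrays in blue, Rptor cKO arrays in red and a bar at the group mean; shapes tell arrays apart and do not pair them. Jag2 and Dll1 stand clear of the wild-type values, Notch2 and Notch3 lie below them, and Nrarp has the same mean of 6.40 in both groups.

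Jag2 (chr12:112907803-112929812 in GRCm38), a ligand of the Jagged family, showed the largest difference of the 10. Its values were 8.77, 8.75 and 8.55 in the knockout group, in the order of arrays 1 to 3. They were 7.82, 7.94 and 8.03 in the wild-type group, in the order of arrays 4 to 6, and the same order is kept below. All Rptor cKO values lay above all wild-type values, with array 3 the lowest of its group. The means were 8.69 ± 0.12 and 7.93 ± 0.11 (SD, n = 3 each), a 1.69-fold rise (0.76, SE 0.10, limma adjusted p = 0.0049). Dll1 (chr17:15367354-15376932), of the Delta family, read 6.86, 6.79 and 6.80 in Rptor cKO and 5.96, 6.12 and 6.15 in wild-type. Its Rptor cKO values lay within 0.07 of each other, and the groups were far apart for that spread. The rise was 1.66-fold (0.73, SE 0.09, limma adjusted p = 0.00369). Both rises passed with any 1 array left out.

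Jag1, the other Jagged ligand, read 8.12, 8.29 and 8.36 in Rptor cKO against 7.30, 8.07 and 7.86 in wild-type. The groups did not overlap, but wild-type array 4 stood low and wild-type array 5 came close to the lowest Rptor cKO value. The difference of 0.51 (SE 0.18, 95% interval 0.09 to 0.94, not adjusted for the number of genes) did not pass the test (limma adjusted p = 0.133). Without wild-type array 4 it was 0.29 (adjusted p = 0.22), and without wild-type array 5 it was 0.68 (adjusted p = 0.0596).

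The receptors moved in different directions. Notch1 (chr2:26457902-26503822), the receptor most studied in keratinocyte differentiation, read 8.51, 8.82 and 8.66 in Rptor cKO and 8.09, 8.35 and 8.19 in wild-type. All Rptor cKO values lay above all wild-type values, with array 1 the nearest. Notch1 rose 1.37-fold (0.45, SE 0.11, limma adjusted p = 0.0459), close to the threshold, and the call was lost without Rptor cKO array 2 (0.37, adjusted p = 0.173) or array 3 (0.45, adjusted p = 0.104), and without wild-type array 4 (0.39, adjusted p = 0.117) or array 6 (0.44, adjusted p = 0.113).

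Notch2 (chr3:98013538-98150367), a receptor expressed in many tissues, read 7.30, 7.50 and 7.80 in Rptor cKO and 8.14, 8.16 and 8.22 in wild-type. Wild-type values were nearly alike (SD 0.04) and Rptor cKO values spread more (SD 0.25), with array 3 nearest to wild-type. Notch2 fell by 0.64 (SE 0.13, 1.56-fold, limma adjusted p = 0.0199). Notch3 (chr17:32120820-32166896), a receptor best known from the smooth muscle of vessels, read 6.97, 7.01 and 7.28 in Rptor cKO and 7.69, 7.42 and 7.61 in wild-type. Here too the groups did not overlap and Rptor cKO array 3 lay nearest to wild-type. Notch3 fell by 0.49 (SE 0.12, 1.40-fold, limma adjusted p = 0.0389). Both falls missed the threshold without Rptor cKO array 2 (Notch2 -0.62, adjusted p = 0.0889; Notch3 -0.45, adjusted p = 0.153) and without wild-type array 6 (Notch2 -0.62, adjusted p = 0.0654; Notch3 -0.47, adjusted p = 0.104). The Notch3 call was also lost without Rptor cKO array 1 (-0.43, adjusted p = 0.113) or wild-type array 4 (-0.43, adjusted p = 0.099).

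Embryo sex differed between the groups. With sex as a term, a fit in which Rptor cKO array 2 alone is set against the wild-type, none of the 10 genes passed in limma, while 3 were higher and 2 lower at an unadjusted p under 0.05. The 5 differences kept their direction and were 0.82 for Jag2 (adjusted p = 0.0507), 0.71 for Dll1 (adjusted p = 0.0579), 0.61 for Notch1 (adjusted p = 0.105), -0.68 for Notch2 (adjusted p = 0.147) and -0.57 for Notch3 (adjusted p = 0.169). The part of sex in the result was not tested beyond this fit.

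The promoters of the 3 receptors and of Dll1 are shown because these receptors are paralogs that moved in different directions and Dll1 is a ligand that rose. Each run is the 250 bases before the annotated start, 5′ to 3′ on the gene's strand, from RefSeq on build GRCm38.p6. For Notch3, 6 of these bases lie inside the annotated span of the gene. Capitals mark matches on either strand to GGGCGG (the GC box bound by SP1-like factors), CACNAG (the N box bound by HES repressors) and TGGGAA (the core of the RBPJ site). The windows are chr2:26503823-26504072 for Notch1 (minus strand), chr3:98013288-98013537 for Notch2 (plus strand), chr17:32166891-32167140 for Notch3 (minus strand) and chr17:15376933-15377182 for the upstream of the listed starts of Dll1 (minus strand).
Notch1: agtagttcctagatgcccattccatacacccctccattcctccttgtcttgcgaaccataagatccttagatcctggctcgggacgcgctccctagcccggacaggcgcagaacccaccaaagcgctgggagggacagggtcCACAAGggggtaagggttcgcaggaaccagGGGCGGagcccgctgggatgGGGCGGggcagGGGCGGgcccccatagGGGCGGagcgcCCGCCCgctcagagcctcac
Notch2: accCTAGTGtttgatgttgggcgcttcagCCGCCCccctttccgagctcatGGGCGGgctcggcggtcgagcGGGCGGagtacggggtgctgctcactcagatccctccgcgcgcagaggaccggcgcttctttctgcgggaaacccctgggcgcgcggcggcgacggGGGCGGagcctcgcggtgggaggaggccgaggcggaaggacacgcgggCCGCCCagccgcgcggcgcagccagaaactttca
Notch3: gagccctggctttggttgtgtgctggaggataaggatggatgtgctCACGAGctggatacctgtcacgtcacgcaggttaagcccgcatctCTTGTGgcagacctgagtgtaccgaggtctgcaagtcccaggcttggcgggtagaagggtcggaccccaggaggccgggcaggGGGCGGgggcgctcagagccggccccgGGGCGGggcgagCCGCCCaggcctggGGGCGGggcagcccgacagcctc
Dll1: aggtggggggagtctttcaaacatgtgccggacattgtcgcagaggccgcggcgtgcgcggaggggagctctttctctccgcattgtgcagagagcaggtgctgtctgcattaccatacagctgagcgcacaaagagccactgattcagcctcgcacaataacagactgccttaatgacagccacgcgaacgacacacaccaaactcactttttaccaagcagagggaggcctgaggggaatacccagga

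All 3 receptor promoters held matches to the GC box and the N box. GC box matches numbered 5 for Notch1, 5 for Notch2 and 4 for Notch3, and N box matches 1, 1 and 2. Dll1 had no match to any of the 3 motifs in this window. No RBPJ core was found in any of these 4 windows. Among 32851 mouse promoter windows of 250 bases, 32.7% held a GC box match, 36.7% an N box match and 21.6% an RBPJ core match. These shares are not matched for GC content. That content was 66% for Notch1, 72% for Notch2, 68.8% for Notch3 and 56% for the printed Dll1 window. The table held promoters for 8 of the 10 genes, and Hes1 and Hey1 were not among them. The windows of Jag2 and Rbpj lie inside the annotated span of their own gene, so their letters are not printed. Jag2 had 5 GC box matches and neither of the other motifs, and Rbpj had 2 and 1 RBPJ core matches in its 2 overlapping windows and neither of the others. The other listed window of Dll1, also inside the gene and not printed, had no match to any of the 3 motifs. In Nrarp (chr2:25180508-25180757, plus strand) 2 N box and 2 GC box matches were found and no RBPJ core. In Jag1 (chr2:137116521-137116770, minus strand) none of the 3 motifs was found. These are matches of letters, not measured binding.

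The nuclear partner and the targets did not pass the test. Rbpj, the DNA-binding protein through which all Notch receptors act, read 6.58, 6.60 and 6.44 in Rptor cKO and 6.73, 6.59 and 6.64 in wild-type. The groups overlapped, and the difference was -0.11 (SE 0.09, 95% interval -0.32 to 0.10, limma adjusted p = 0.534). Hes1, a repressor and common Notch target, read 6.09, 6.36 and 6.42 against 5.82, 6.24 and 6.03. Its highest wild-type array exceeded its lowest Rptor cKO array, and the difference of 0.26 (SE 0.14, 95% interval -0.05 to 0.57) had a limma adjusted p of 0.301.

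Hey1, a related repressor, had the largest standard error of the 10. It read 5.12, 5.63 and 5.17 in Rptor cKO and 5.35, 5.54 and 4.75 in wild-type. The difference was 0.09 (SE 0.22, 95% interval -0.40 to 0.59, limma adjusted p = 0.842), and its sign turned without Rptor cKO array 2 (-0.07) or wild-type array 6 (-0.14). Nrarp, a target that feeds back to destabilise the receptor complex, read 6.35, 6.34 and 6.50 in Rptor cKO and 6.26, 6.39 and 6.54 in wild-type. The Rptor cKO values lay inside the wider range of the wild-type values, and the interval of the difference (0.00, SE 0.10) ran from -0.24 to 0.24 (limma adjusted p = 0.994).

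**Figure D2:**
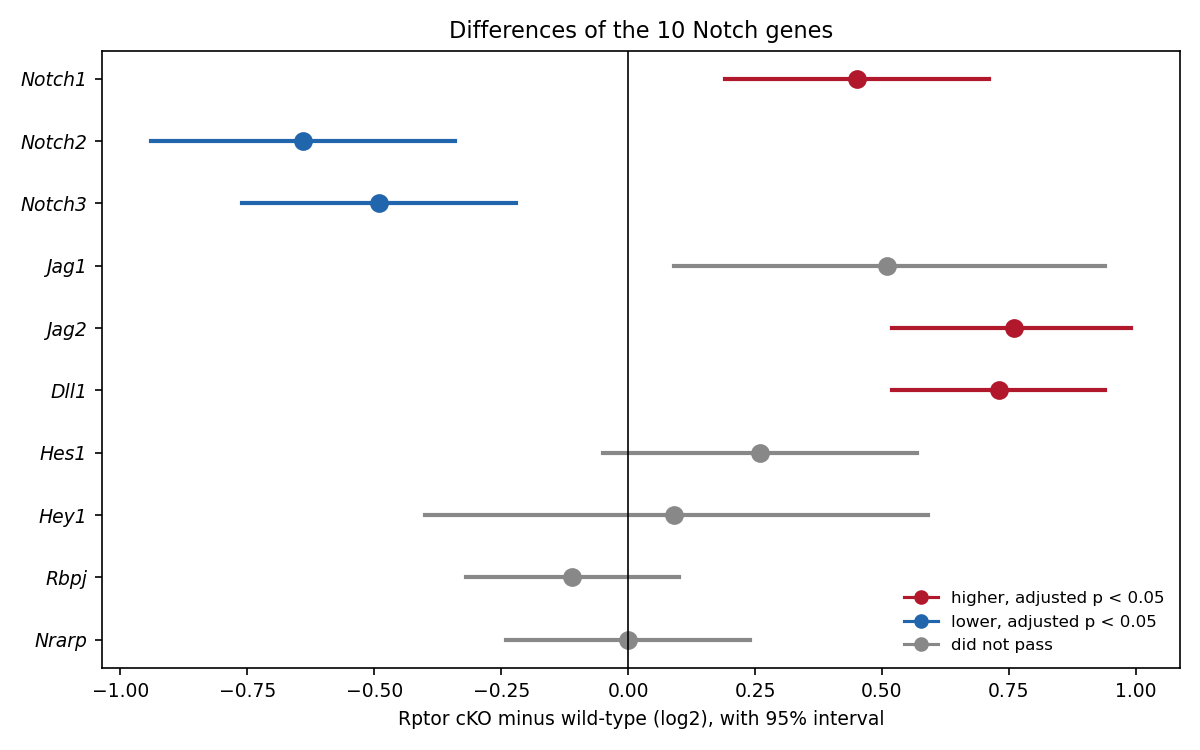
The difference of each Notch gene (Rptor cKO minus wild-type, log2) is plotted with its 95% interval from limma, in red where it rose, blue where it fell and grey where it did not pass the test. Jag2 at 0.76 and Notch2 at -0.64 mark the ends, and the intervals of Hes1, Hey1, Rbpj and Nrarp include 0.

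Whether paralogs changed unequally was tested within arrays. For 6 pairs, the log2 difference of the pair was taken on each array, expressed relative to its wild-type mean, and compared between groups by an exact two-sided permutation test. Notch1 against Notch2 shifted by 1.09, with 1.17, 1.29 and 0.82 in Rptor cKO against -0.09, 0.16 and -0.07 in wild-type. Notch1 against Notch3 shifted by 0.94, with 0.90, 1.17 and 0.74 against -0.23, 0.29 and -0.06. The groups did not overlap for either pair. This follows from the single-gene values above, where Notch1 lay wholly higher and Notch2 and Notch3 wholly lower in Rptor cKO. The exact permutation p of 0.1 for both pairs was thus fixed by those values and adds no further support. It is the smallest that 3 against 3 arrays allow (adjusted p = 0.3 over the 6 pairs), so this design cannot take them past the threshold.

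Notch2 against Notch3 shifted by -0.15 with overlapping groups (exact p = 0.3, adjusted p = 0.48). Among the ligands, Jag2 against Dll1 shifted by 0.02 (exact p = 0.8, adjusted p = 0.8), with Rptor cKO arrays from -0.10 to 0.11. Jag2 against Jag1 shifted by 0.24 and Dll1 against Jag1 by 0.22 (exact p = 0.4 and adjusted p = 0.48 for each), and their groups overlapped. The smallest exact permutation p of 0.1 holds for these pairs too, so none could have passed the threshold. The test therefore cannot decide whether the 3 ligands changed unequally.

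**Figure D3:**
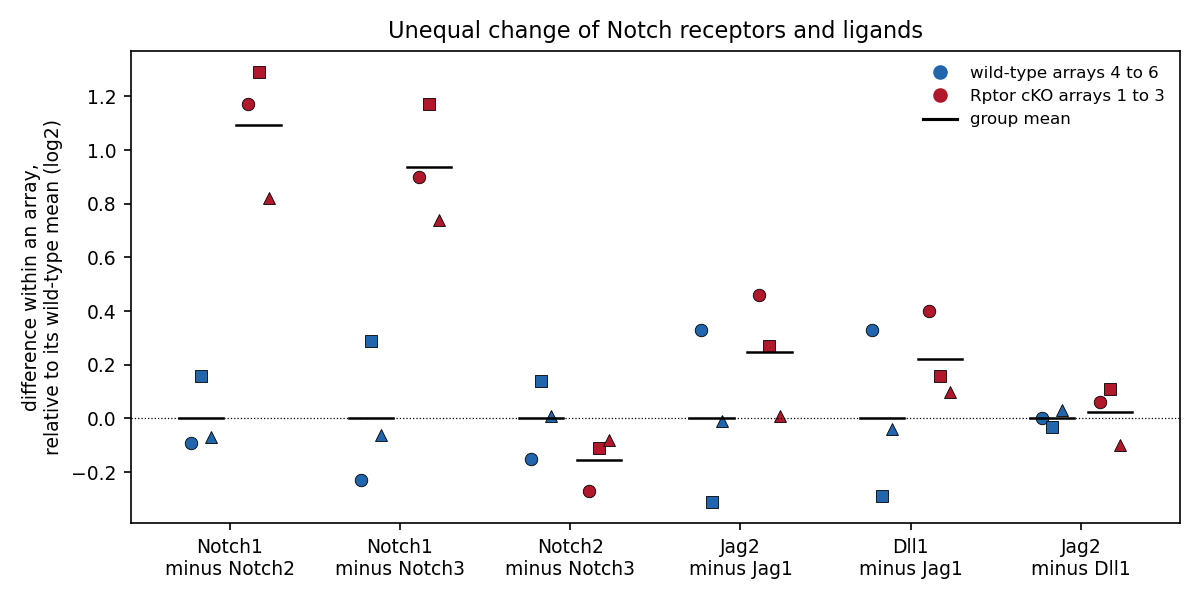
For each pair of Notch genes the difference within an array (log2), relative to the mean of the wild-type arrays, is plotted for wild-type (blue) and Rptor cKO (red) arrays, with bars at group means. Notch1 against Notch2 and Notch1 against Notch3 separate the groups by 1.09 and 0.94, which the single-gene values already imply. The other 4 pairs overlap.

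Beyond the 10 genes, 64 further genes of the pathway were measured, in lists by role written from general knowledge. Of these, 1 rose, 9 fell and 54 did not pass (15.6% called, beside 9.58% over all genes), and their median difference was 0.03. Of the 9 falls, 4 lay in the list of 7 keratinocyte genes reported to be under Notch control. Krt1, Krt10 and Ivl among these 4 are also layer markers. The share called is thus not that of the signalling genes alone. Without Rptor cKO array 2 none of the 64 passed in limma, with 4 higher and 15 lower at an unadjusted p under 0.05. Without Rptor cKO array 1, 5 passed, and without wild-type array 6, 3 passed.

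The proteases that cut Notch held 3 of the falls among 9 measured genes, and 8 of the 9 differences were below 0. Aph1b, a gamma-secretase subunit, read 4.89, 4.97 and 5.25 in Rptor cKO and 5.71, 6.43 and 6.12 in wild-type. It fell by 1.05 (SE 0.18, 2.07-fold, limma adjusted p = 0.0112). Its close paralog Aph1c, which may share probes with it, differed by -0.57 (adjusted p = 0.0692). Psenen, another gamma-secretase subunit, read 9.40, 9.48 and 9.91 against 10.39, 10.02 and 10.38, and fell by 0.67 (SE 0.16, adjusted p = 0.038). Adam17, a sheddase that also cuts growth factor precursors, fell by 0.48 (SE 0.12, adjusted p = 0.0468). Adam17 lost its call in 10 of 14 alternatives, Psenen in 7 and Aph1b in 3. Adam10, the main protease of the ligand-induced cut, differed by -0.11 (SE 0.14, adjusted p = 0.701), a gene outside the naming rule that was chosen after its value was seen.

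Among nuclear factors, Kat2b, an acetyltransferase coactivator, fell by 0.51 (SE 0.12, adjusted p = 0.032) as 1 of 6 coactivators. Tle1, a Groucho-type corepressor recruited by HES proteins, rose by 0.45 (SE 0.11, adjusted p = 0.0393) as 1 of 9 corepressors. Tle1 lost its call in 10 of 14 alternatives and Kat2b in 6. In the list of inhibitors and turnover genes, Aak1, a kinase of the endocytic adaptor complex, fell by 0.43 (SE 0.10, adjusted p = 0.0355). Aak1 lost its call in 8 of 14 alternatives. The other 9 of that list did not pass, and 4 of the 10 were lower at an unadjusted p under 0.05.

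No gene passed in limma among the other receptors and ligands (0 of 5), the glycosylation enzymes (0 of 5), the ligand endocytosis genes (0 of 5) and the HES and HEY genes beyond Hes1 and Hey1 (0 of 8). At an unadjusted p under 0.05 these lists held 1, 3, 0 and 0 genes, all higher. Among the other receptors and ligands the smallest p belonged to Dlk1, an atypical ligand, at 0.61 (SE 0.18, adjusted p = 0.0667) and Notch4, the endothelial receptor, at 0.18 (SE 0.09, adjusted p = 0.29). Lfng, a Fringe enzyme that tunes which ligand a receptor answers, differed by 0.48 (SE 0.14, adjusted p = 0.0679), and Pofut1, which adds the fucose that Fringe extends, by 0.22 (SE 0.08, adjusted p = 0.153). The ubiquitin ligases Neurl1a and Neurl1b differed by 0.14 (adjusted p = 0.409) and -0.18 (adjusted p = 0.656). Hes7 and Hey2 differed by 0.21 (adjusted p = 0.421) and 0.10 (adjusted p = 0.643), and Hey2 read below the median negative control on 5 arrays.

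Of 7 keratinocyte genes reported to be under Notch control, 4 fell and none rose. Krt1 and Krt10, the keratins of the spinous layer, fell by 2.07 (SE 0.39, adjusted p = 0.0146) and fell by 1.76 (SE 0.35, adjusted p = 0.0179). Ivl, the envelope protein involucrin, fell by 1.90 (SE 0.35, adjusted p = 0.0136). Cdkn1a, the cell cycle inhibitor p21, read 8.08, 8.42 and 9.05 in Rptor cKO and 9.56, 9.74 and 9.42 in wild-type, and fell by 1.05 (SE 0.22, 2.07-fold, adjusted p = 0.0232). All 4 missed the threshold without Rptor cKO array 2, with differences of -1.69, -1.46, -1.68 and -1.01 and adjusted p from 0.0504 to 0.101. Trp63 (p63), Ascl2 and Sox9 did not pass, with differences from -0.23 to 0.16. Krt1, Krt10 and Ivl also count as layer markers, so this list overlaps those below.

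**Figure D4:**
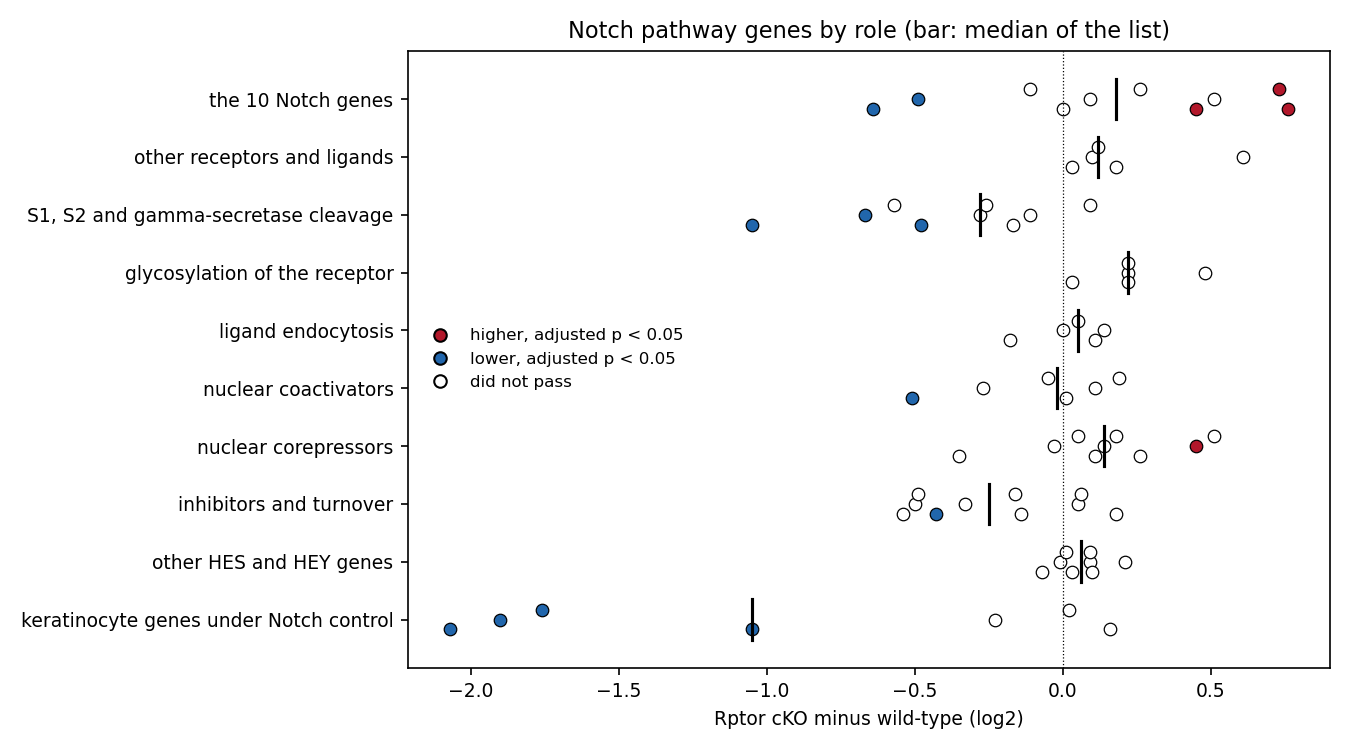
Each point is 1 gene, placed by its difference (Rptor cKO minus wild-type, log2) in the row of its role, filled red where it rose, blue where it fell and white where it did not pass, with a bar at the median of the list. The protease row has a median of -0.28 and the row of keratinocyte genes -1.05, while the HES and HEY row has 0.06.

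Markers of the layers and of other cell types moved with the groups. All 9 spinous markers fell and 9 of 10 granular and cornified markers fell, whereas 4 of 10 basal markers rose (Itga3 by 1.41, Itgb4 by 0.98, Itgb1 by 0.87 and Lamb3 by 0.46) and Krt15 fell by 2.31. The summed linear level of the spinous markers ran from 3989 to 11364 in Rptor cKO and from 21148 to 26409 in wild-type. That of the basal markers ran from 7656 to 9930 and from 9030 to 10919. Such sums weigh the brightest markers most. By count, 9 of the 10 basal differences were above 0. The mean log2 level of the basal markers ran from 8.65 to 8.83 in Rptor cKO and from 8.36 to 8.67 in wild-type. Among dermal fibroblast markers 5 of 6 rose, with sums from 702 to 937 against 416 to 462, and Dcn (decorin) rose by 0.94. Of 8 endothelial markers 2 rose (Pecam1 and Flt1), with sums from 162 to 181 against 123 to 148, and Kdr, Tek and Emcn read below the median negative control on every array. Pecam1 was itself near that median in wild-type, at 4.12, 3.90 and 3.84, and read below it on 1 array. Of 6 mural markers Acta2 rose, by 1.68, while Kcnj8 read below that median on every array, and the sums ran from 175 to 278 against 146 to 182. Acta2 was uneven in Rptor cKO, at 4.92, 6.71 and 6.52. The part of these markers in the differences of the Notch genes was not tested.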

How the data were processed

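The authors deposited log2 values per probe set for 6 arrays, with RMA, Partek and build mm10 named, without versions, per the submitters' processing notes. Of 72688 probe sets, 6732 were controls, 30604 named a single gene, 2146 several and 33206 none. Where a gene had several, its brightest by mean was used; all 10 Notch genes had a single one. Differences were fitted on 30142 genes with lmFit and eBayes of limma 3.58.1 (R 4.3.3), group as the sole term, two-sided, Benjamini-Hochberg adjusted, threshold 0.05, with no filter on dim genes. Errors are moderated standard errors (SE) and SDs of 3 arrays. The 5222 negative control probe sets (medians 3.81 to 4.11) served as a guide to dim values. Their 95th percentiles ran from 7.46 to 8.07. Every value of Dll1, Hes1, Hey1, Rbpj, Nrarp, Aph1b and Atoh1 lay below that range. Among other genes, so did every value of Adam17, Kat2b, Tle1, Aak1, Lamb3, Flt1, Pecam1, Acta2, Krt18, Csf1r, Cx3cr1 and Ptprc. Notch3 read below the 95th percentile of its own array on all Rptor cKO arrays and on wild-type array 5. Notch2 did so on Rptor cKO arrays 1 and 2, and Jag1 on wild-type array 4. Reading above the median thus does not place a gene clear of background. Other settings numbered 14. The procedure was tested on simulated data. The members and lists were chosen with earlier results of these data known. Named were the 10 genes, Rptor, from each pathway list the genes that passed or the 2 with the smallest p, up to 3 markers a list with exceptions stated, and the 2 genes nearest to each Notch gene. All 4 basal markers that rose, the dim vascular markers, Cd207 and Adgre1 were named after their values were seen. Number of arrays limits precision; scan dates were not used here.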

Additional observations from a re-analysis of the deposited data

How the results depend on the processing

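The rises of Jag2 and Dll1 passed in 12 of 14 alternatives, Notch1 in 6, Notch2 in 10 and Notch3 in 5, and all 5 kept their direction in each of the 14. Leaving out 1 array at a time gave 2 to 3 Notch genes higher and 0 to 2 lower (0 without Rptor cKO array 2 or wild-type array 6, with 2 lower at an unadjusted p under 0.05 in each), 0 to 10 of the other pathway genes called, and 886 to 2443 genes called in all. An ordinary linear model without variance moderation called 8 genes, of which 0 were Notch genes in either direction (3 higher and 2 lower at an unadjusted p under 0.05) and 0 other pathway genes (18 unadjusted). With embryo sex as an added term, limma called 642 genes, 0 Notch genes higher, 0 lower and 2 other pathway genes. Quantile normalization, a trended robust eBayes and array weights each left 1 Notch gene lower, Notch2. The cause was not tested. Neurl1b turned to 0.01 with sex as a term and ranged from -0.31 to 0.05 with 1 array left out, Hey1 from -0.14 to 0.26, and the pair Jag2 against Dll1 from -0.02 to 0.08. Leaving out dim genes changed none of the Notch counts. Taking the mean of all probe sets of a gene could not alter the values of the Notch genes, which have a single probe set each. That setting is counted among the 14 but is no check on these genes. No paired analysis was possible because the groups share no replicate numbers.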

Other observations

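Some markers of rarer epidermal cells also differed between the groups. Atoh1, the transcription factor of Merkel cells, read 4.94, 4.89 and 4.93 in Rptor cKO and 5.43, 5.66 and 5.71 in wild-type, a fall of 0.68 (SE 0.10, limma adjusted p = 0.00667). Krt18, a simple keratin of the same list, rose by 0.43 (adjusted p = 0.0205), and the other 4 Merkel markers did not pass. Of 5 Langerhans cell and macrophage markers 3 fell, namely Cx3cr1 by 0.70, Csf1r by 0.64 and Ptprc by 0.57, and Ptprc read below the median negative control on 4 arrays. The other 2 did not pass in limma, with Adgre1 at -0.33 (adjusted p = 0.156) and Cd207 above 0, at 0.12 (adjusted p = 0.595). Kit rose by 0.63 (adjusted p = 0.0252) as 1 of 5 melanocyte markers. Of 7 hair placode and follicle markers, Edar rose by 1.08 and Krt17 by 0.77. The other 5 did not pass, with differences from -0.47 to 0.34.

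The Rptor cKO arrays were not equally far from wild-type. Array 3 was the nearest of the 3 to the wild-type mean for all 9 spinous and all 10 granular and cornified markers. For the 10 Notch genes, with those that did not pass included, array 3 was nearest for 4, array 1 also for 4 and array 2 for 2. Among the 5 that passed, array 3 was nearest for Jag2, Notch2 and Notch3, array 1 for Notch1 and array 2 for Dll1. Array 1 was nearest for all 5 melanocyte markers. These counts were chosen after the values were seen and have no test.

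The genes nearest to the Notch genes over the 6 arrays, by root mean square difference of centred log2 values, were Akt1 and Dnaaf5 for Notch1 (0.03 each), Lamtor2 and Uqcrq for Notch2 (0.04 each) and Zcchc2 and S100a16 for Notch3 (0.04 each). For the ligands they were Cmtm3 (0.05) and Zfp566 (0.06) for Jag2, Ddah1 (0.05) and Myh10 (0.06) for Dll1, and Fermt2 (0.04) and Sostdc1 (0.07) for Jag1. For the others they were Ltbp3 and the pseudogene Rpl36-ps8 for Hes1 (0.02 each), Zc3h12a and n-R5s194 for Hey1 (0.07 each), Dgat2l6 and Bhlha15 for Rbpj (0.02 each) and Tbcd and Anxa4 for Nrarp (0.03 each). These matches were picked among 30142 genes over 6 arrays in 2 groups and are given as a description.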
